A study of Mus musculus with 4 samples.

Results

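Small nucleolar RNAs (snoRNAs) are short, stable non-coding RNAs that guide enzymes to chosen bases of other RNAs. C/D box snoRNAs (gene symbols starting Snord) work with the protein fibrillarin, which adds methyl groups to riboses of ribosomal RNA, and H/ACA box snoRNAs (Snora) work with dyskerin, which turns uridine into pseudouridine. Small Cajal body RNAs (Scarna) do the same for the RNAs of the spliceosome. In mammals most of them are cut out of introns of longer host transcripts, many of which encode ribosomal proteins or other parts of the translation machinery.

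The genes described here were all those with a probe whose platform annotation gives exactly 1 gene symbol starting with Snora, Snord or Scarna. The rule took 81 probes and 78 genes of the 22180 genes measured, of which 47 were C/D box, 26 H/ACA box and 5 Cajal body genes. Where a gene had several probes, as 3 did, the brightest on average was kept. A further 46 probes that pair a snoRNA with other symbols were left out. The reference gene table holds all 78, with annotated lengths from 48 to 248 nucleotides and a median of 80.5. The median length was 68 nucleotides for C/D box, 118.5 for H/ACA box and 71 for Cajal body genes, and 74 of the 78 were shorter than 200 nucleotides.

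The arrays came from CD4+ T cells that carry the yellow fluorescent protein and Cre recombinase reporter of the Foxp3 gene, which marks regulatory T cells. There were 4 groups of 1 array each. TFR cells (T follicular regulatory cells, sorted as PD1+ CXCR5+ YFP+) and non-TFR cells (sorted as CXCR5- YFP+) were each taken from Prdm1fl/flFoxP3YFP-Cre mice, called KO, and from FoxP3YFP-Cre mice, called WT, 7 days after immunization with the antigen NP-OVA in complete Freund's adjuvant. All 4 groups thus carried the Cre allele, and deletion of Prdm1, which encodes the transcription factor Blimp-1, is limited to cells that express Foxp3. The sources used here do not give the animals' age and sex or how many mice each array stands for.

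With 1 array per group no difference has a replicate check and none was tested, so that every difference below describes 2 arrays. Values are log2 signals after quantile normalization, and differences are on the same log2 scale. Prdm1 itself was at 7.32 in KO TFR, 8.21 in WT TFR, 7.59 in KO non-TFR and 7.80 in WT non-TFR cells. It was lower in KO than in WT cells of both populations, by less in the non-TFR pair, and the sources used here do not say which of its exons the probe reads. Foxp3 was between 11.87 and 12.45 and Cd4 between 11.02 and 11.33 on all arrays. None of 8 myeloid and dendritic markers was above the median of all gene means (5.91, used below as the limit for an expressed gene) on any array. Of 5 measured B cell markers, 3 in KO TFR and 2 in each other group were above it. The list's mean level was 6.58, 6.40, 6.06 and 5.79 in KO TFR, WT TFR, KO non-TFR and WT non-TFR cells. Its median level was 6.10, 5.69, 5.64 and 5.69 in the same order of groups. The B cell marker Ms4a1 stayed between 3.98 and 4.12, while Cd22 was at 9.27, 8.27, 7.04 and 5.99 in that order. Of 3 plasma cell markers, 1 was above the limit in each TFR group and 0 in each non-TFR group. Of 5 CD8 and NK cell markers, 2 were above it in every group. The part of other cells, and of fewer cells against less RNA per cell, in the differences below was not tested and cannot be told apart in bulk arrays.

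Measured this way, the mean over the 4 arrays was above the limit for 61 of the 78 snoRNA genes, made up of 37 C/D box, 20 H/ACA box and 4 Cajal body genes. On every array 56 members were above it and on every array 14 were below it. The median level of the 78 was 7.23 in KO TFR, 7.25 in WT TFR, 7.42 in KO non-TFR and 7.64 in WT non-TFR cells. Signals of different probes are not compared here as amounts of RNA. A probe within an intron can read both the finished snoRNA and its unspliced host transcript, which cannot be told apart on these arrays.

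Relative to all genes, the largest median differences lay between the cell populations. Of the 78 snoRNA genes, 53 were lower in KO TFR than in KO non-TFR cells and 62 were lower in WT TFR than in WT non-TFR cells. These are 67.9% and 79.5% of the members, against 50.0% and 48.3% of all genes. The median difference was -0.20 in KO and -0.25 in WT cells, where the median of all genes was 0.00 and 0.01. The shift was small for most members, with quartiles of -0.39 and 0.17 in KO and of -0.63 and -0.05 in WT cells.

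The size of that shift depends on how the arrays were brought to one scale. As deposited, the median of all genes was higher by 0.12 in KO TFR than in KO non-TFR cells and by 0.11 in WT TFR than in WT non-TFR cells. On those values 44 members were lower in the KO pair (56.4%, against 37.2% of all genes) and 54 in the WT pair (69.2%, against 37.6%). Relative to the median of all genes, 53 members lay below it in the KO pair and 62 in the WT pair under both scalings. The members' median was 0.20 below that of all genes in the KO pair and 0.27 below it in the WT pair after quantile normalization, and 0.19 and 0.27 below as deposited.

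**Figure D1:**
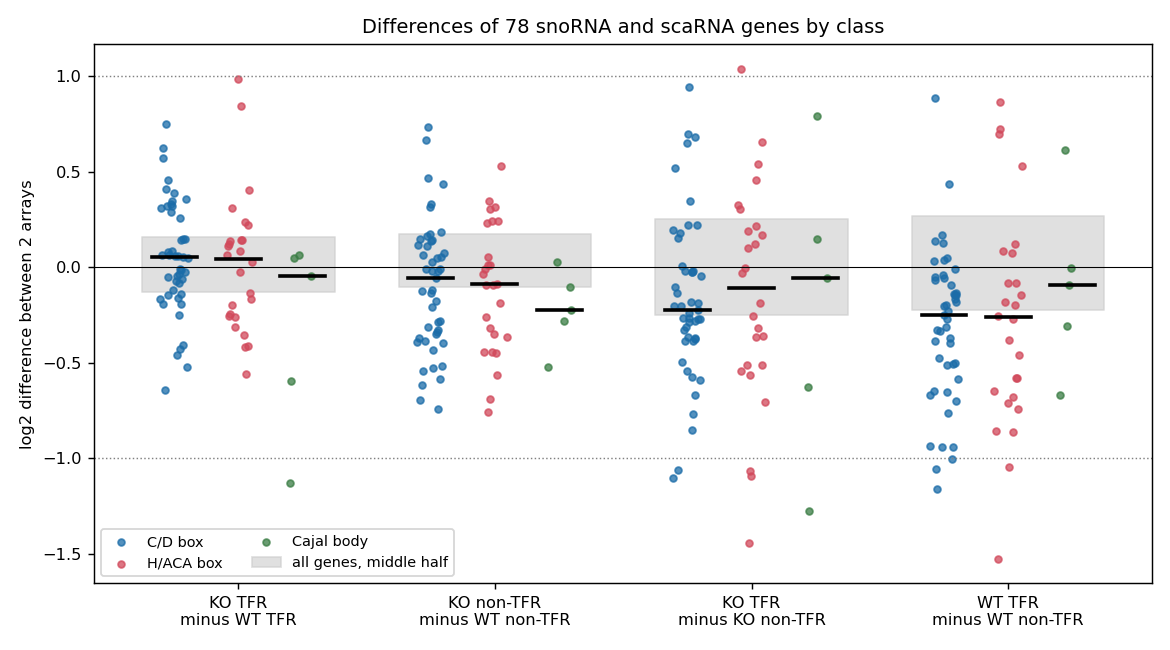
Log2 differences (vertical axis) of the 78 snoRNA genes by class in each of the 4 comparisons, 1 point per gene, with the class median as a bar, dotted lines at 2-fold and grey bands between the quartiles of all genes. Most C/D box points lie below 0 in both comparisons of TFR with non-TFR cells, and the points of both genotype comparisons lie on either side of 0.

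By class, 35 of 47 C/D box genes (74.5%, against 50.0% of all genes) were lower in KO TFR than in KO non-TFR cells. In the WT pair 39 (83.0%, against 48.3% of all genes) were lower in TFR cells, and the medians were -0.22 in the KO and -0.25 in the WT pair. Of the 26 H/ACA box genes, 15 (57.7%) were lower in the KO pair, nearer the share of all genes, and 19 (73.1%) in the WT pair. Their medians were -0.11 and -0.26. The 5 Cajal body genes had medians of -0.06 and -0.09. As deposited, the medians were -0.08 and -0.14 for C/D box, 0.04 and -0.22 for H/ACA box and 0.09 and 0.02 for Cajal body genes, so that the sign of the H/ACA box median in the KO pair and of both Cajal body medians turned with the scaling. The difference between classes was not tested.

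At least 2-fold apart, 6 members were lower and 1 was higher in KO TFR than in KO non-TFR cells, where 1.18% of all genes were lower and 2.23% higher by that much. In the WT pair 5 were lower and none was higher, against 1.18% and 2.69% of all genes. At least 0.5 apart in either direction were 27 of 78 members (34.6%) in the KO pair and 32 (41.0%) in the WT pair, against 20.5% and 19.8% of all genes. The threshold of 0.5 was chosen with these values known. The KO pair and the WT pair share no array. Across the 78 genes Pearson's r between their differences was 0.58 and Spearman's rho 0.56, and across all genes 0.75 and 0.69, where genes are not independent replicates. In both pairs 47 members (60.3%) were lower in TFR cells, against 36.6% of all genes. In both pairs 10 (12.8%) were higher, against 38.3% of all genes, and 21 (26.9%) differed in sign, against 25.1%. By at least 0.5 in both pairs, 11 members (14.1%) were lower, against 4.61% of all genes, and 4 (5.13%) were higher, against 6.24%.

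**Figure D2:**
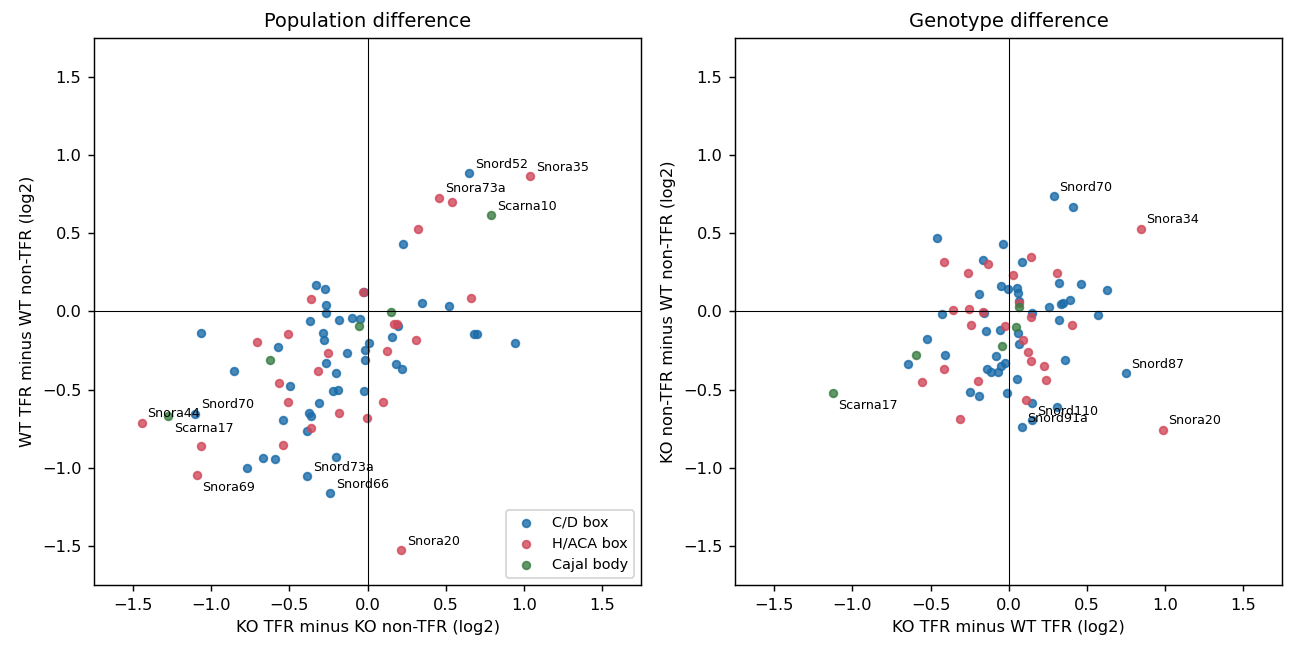
Left, the TFR minus non-TFR log2 difference of each snoRNA gene in KO cells (horizontal axis) against that in WT cells (vertical axis). Right, the KO minus WT difference in TFR cells against that in non-TFR cells. In the left panel 47 of 78 points lie below 0 on both axes, and in the right panel 33 have opposite signs on the axes, a share of 42.3% against 44.4% of all genes.

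Snora44, Snora69 and Snora78, all H/ACA box guides, were among the members lower in TFR cells of both genotypes. Snora44 was at 9.62 in KO TFR, 10.03 in WT TFR, 11.06 in KO non-TFR and 10.74 in WT non-TFR cells. Its difference was -1.44 in the KO pair, a level 2.72-fold lower in TFR cells, and -0.71 in the WT pair. Both non-TFR arrays were above both TFR arrays.

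Snora69 had 6.85 in KO TFR, 7.26 in WT TFR, 7.94 in KO non-TFR and 8.31 in WT non-TFR cells. The 2 differences were alike in size, at -1.09 in the KO pair and -1.05 in the WT pair, and the TFR arrays again lay below the non-TFR arrays. Snora69 lies within Rpl39, which encodes a protein of the large ribosomal subunit and which was itself lower in TFR cells by less, with -0.43 in the KO and -0.28 in the WT pair. Snora78 was at 8.77 in KO TFR, 8.75 in WT TFR, 9.84 in KO non-TFR and 9.61 in WT non-TFR cells. Its level was 2.09-fold lower in TFR cells of the KO pair and differed by -0.86 in the WT pair.

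Among C/D box genes, Snord70 and Snord58b passed 2-fold only in the KO pair, though both were lower in TFR cells of both genotypes. The difference between the pairs was not tested. Snord70, which lies within Nop58, the gene of a core C/D box protein, was at 5.69 in KO TFR, 5.40 in WT TFR, 6.79 in KO non-TFR and 6.06 in WT non-TFR cells. Its difference was -1.10 in the KO pair and -0.65 in the WT pair, with both TFR levels under the limit of 5.91, so that no fold is given. Snord58b, within the ribosomal protein gene Rpl17, had 8.46 in KO TFR, 8.92 in WT TFR, 9.52 in KO non-TFR and 9.05 in WT non-TFR cells. It differed by -1.06 in the KO pair and by -0.14 in the WT pair, and its highest value was that of KO non-TFR cells.

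Snord66, Snord73a and Snord83b passed 2-fold only in the WT pair, though the difference between the pairs was not tested. Snord66 was at 7.40 in KO TFR, 7.09 in WT TFR, 7.64 in KO non-TFR and 8.25 in WT non-TFR cells, 2.24-fold lower in TFR cells of the WT pair and -0.24 apart in the KO pair. Snord73a had 7.02, 6.66, 7.41 and 7.72 in KO TFR, WT TFR, KO non-TFR and WT non-TFR cells, a difference of -0.38 in the KO pair and -1.06 in the WT pair. For both, WT TFR was the lowest and WT non-TFR the highest of the 4 arrays. Snord83b, within the ribosomal protein gene Rpl3, was at 6.50, 6.64, 7.27 and 7.64 in the same order, and its differences of -0.77 and -1.00 had one sign in both genotypes. Snora20, on levels under the limit given below, was the fifth member lower by that much in the WT pair, with -1.53 there and 0.22 in the KO pair.

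Some members ran the other way, 25 in the KO pair, 16 in the WT pair and 10 (12.8%, against 38.3% of all genes) in both. Snora73a and Snora73b are near-identical copies of the RNA U17, which is needed to cut ribosomal RNA precursors rather than to modify them, and their signals may be shared. Snora73a was at 7.52 in KO TFR, 7.77 in WT TFR, 7.06 in KO non-TFR and 7.04 in WT non-TFR cells, and Snora73b at 8.30, 8.46, 7.76 and 7.76. Both TFR arrays were above both non-TFR arrays for each gene, with differences of 0.46 and 0.73 for Snora73a and 0.54 and 0.70 for Snora73b in the KO and the WT pair. Scarna10 had 6.30 in KO TFR, 6.34 in WT TFR, 5.50 in KO non-TFR and 5.72 in WT non-TFR cells, which gave differences of 0.79 and 0.62.

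Snora35 was the 1 member at least 2-fold higher in TFR cells, in the KO pair. It lies within Htr2c, a serotonin receptor gene known for expression in brain. Snora35 was at 6.24 in KO TFR, 6.10 in WT TFR, 5.20 in KO non-TFR and 5.24 in WT non-TFR cells, with differences of 1.04 and 0.87. Both non-TFR levels were under the limit, so that no fold is given, and Htr2c was under it on all 4 arrays, between 3.97 and 4.54. Snord52, a C/D box gene, was at 5.19, 5.10, 4.54 and 4.22 in KO TFR, WT TFR, KO non-TFR and WT non-TFR cells, under the limit on every array.

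**Figure D3:**
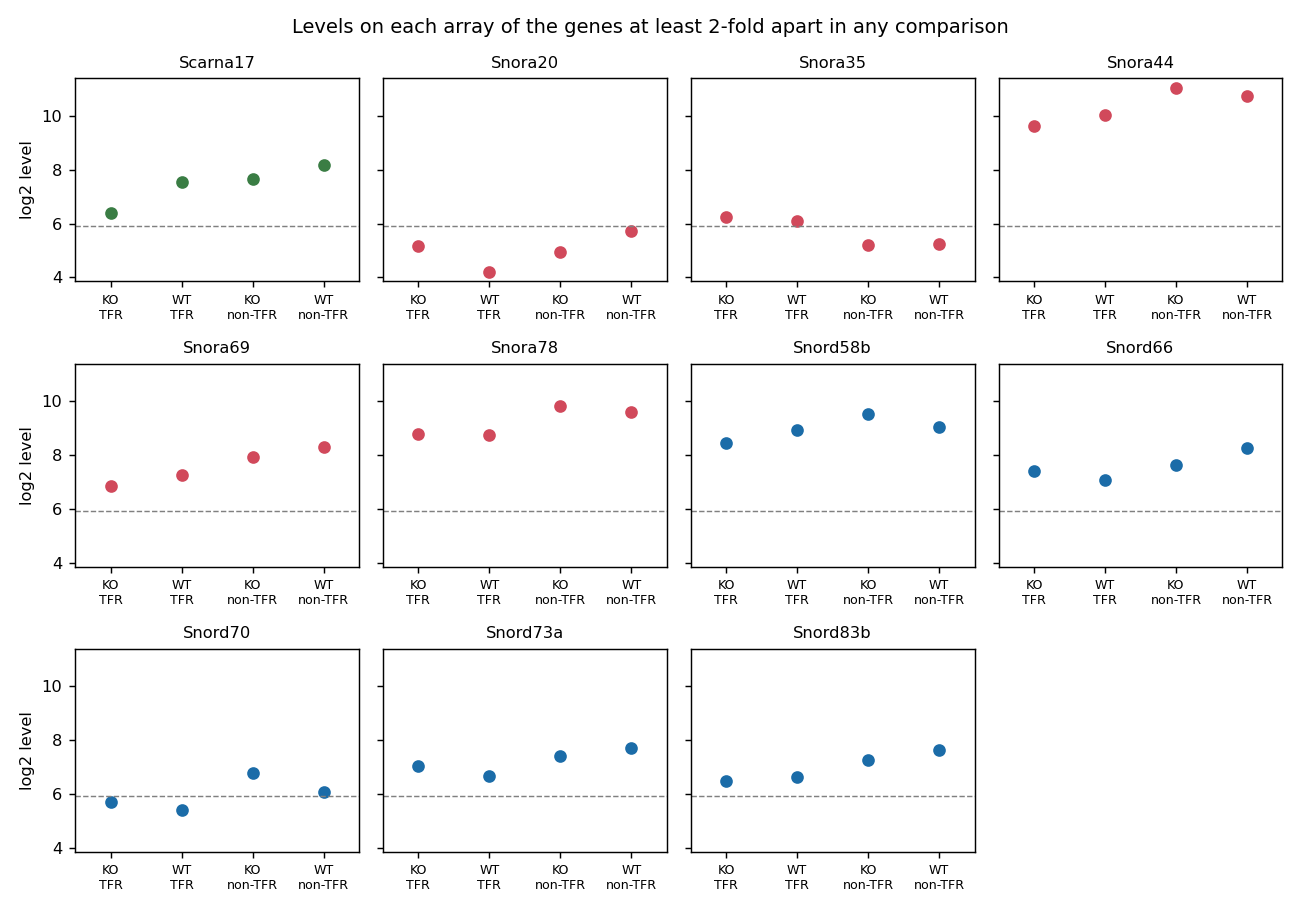
Log2 level (vertical axis) in each of the 4 groups for the 11 snoRNA genes at least 2-fold apart in any of the 4 comparisons, 1 array per point, with the limit of 5.91 as a dashed line and colours by class as in the plots of differences. All but Snora20 and Snora35 have both TFR points below both non-TFR points, and Snora35 has both above.

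The comparison of KO with WT cells asks what loss of Prdm1 goes with, and it gave no common direction in TFR cells. Of the 78 genes, 41 were higher and 37 lower in KO TFR than in WT TFR cells (47.4% lower, against 47.6% of all genes). The median was 0.05, against 0.01 for all genes. In non-TFR cells 30 were higher and 48 lower in KO cells (61.5% lower, against 43.8% of all genes), with a median of -0.09, against 0.03 for all genes. This comparison and the WT pair of populations share the WT non-TFR array, where the members' median level was the highest, at 7.64. In TFR cells 1 member was at least 2-fold lower and none was 2-fold higher, where 0.162% of all genes were lower and 0.289% higher by that much. In non-TFR cells no member passed 2-fold in either direction, against 0.0766% lower and 0.433% higher among all genes. At least 0.5 apart were 10 members in TFR cells (12.8%, against 5.15% of all genes) and 14 in non-TFR cells (17.9%, against 5.45%).

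The standard deviation over the members was 0.34 in TFR and 0.33 in non-TFR cells, against 0.26 in each for all genes. It was nearly as wide over the 483 microRNA genes, at 0.33 in each, of which 12.2% and 11.8% were at least 0.5 apart. Most microRNA genes were under the limit, unlike most members, with between 105 (KO TFR) and 121 (WT non-TFR) of the 483 above it on an array. The genotype differences in TFR and in non-TFR cells share no array, and across the 78 genes they had r of 0.15 and rho of 0.13, against 0.23 and 0.17 across all genes. Both were lower in KO cells for 26 members (33.3%, against 23.5% of all genes) and both higher for 19 (24.4%, against 32.0%). They were opposite for 33 (42.3%), near the 44.4% of all genes. The median of the genotype difference in TFR minus that in non-TFR cells was 0.17, against -0.02 for all genes. It was above 0 for 48 members and below for 30 (38.5%, against 52.9% of all genes).

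Scarna17 was the member at least 2-fold lower in KO TFR than in WT TFR cells. It was at 6.40 in KO TFR, 7.53 in WT TFR, 7.68 in KO non-TFR and 8.20 in WT non-TFR cells. The KO TFR array stood below the other 3, 2.18-fold below WT TFR and 2.42-fold below KO non-TFR cells. A second Scarna17 probe had 6.22, 6.83, 6.31 and 6.74 in the same order, so that it repeated the lower level in KO cells (-0.61 in TFR and -0.43 in non-TFR cells) but put the populations only -0.09 apart in KO and 0.09 apart in WT cells. With the mean of both probes no member was 2-fold lower in KO TFR than in WT TFR cells.

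Snora34 was the 1 member higher by at least 0.5 in KO cells of both populations (1.28%, against 0.654% of all genes). Scarna17, by its brighter probe, was the 1 lower by that much in both (1.28%, against 0.289%). Snora34 was at 9.94 in KO TFR, 9.10 in WT TFR, 10.49 in KO non-TFR and 9.96 in WT non-TFR cells. Each KO array was above the WT array of its population, 1.80-fold in TFR and 1.44-fold in non-TFR cells, while the TFR level was below the non-TFR level in both genotypes. Its host Kansl2, which encodes a subunit of a histone acetyltransferase complex, differed between KO and WT by 0.35 in TFR and by -0.09 in non-TFR cells.

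Snora34 and Snora19 are the members whose place in the genome overlaps an annotated microRNA hairpin. The sequences are shown because RNA of these hairpins and the snoRNA come from the same bases and a probe there can read either. They are RefSeq sequences of mouse build GRCm38.p6, with the seeds of the mature microRNAs (bases 2 to 8) in capitals. The Mir1291 hairpin lies at chr15:98519762-98519878 on the minus strand and shares 73 nucleotides with Snora34. The Mir3084-2 hairpin lies at chr19:60774329-60774397 on the minus strand and shares 56 nucleotides, the whole annotated length, with Snora19. A sequence equal to it belongs to 2 hairpins in the table. Neither microRNA had a probe with 1 symbol.
Mir1291: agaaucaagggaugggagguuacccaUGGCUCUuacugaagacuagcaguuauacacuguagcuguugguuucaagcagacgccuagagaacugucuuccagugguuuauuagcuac
Mir3084-2: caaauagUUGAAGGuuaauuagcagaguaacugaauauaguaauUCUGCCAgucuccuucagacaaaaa

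Snora19 was at 4.23 in KO TFR, 4.54 in WT TFR, 4.11 in KO non-TFR and 4.80 in WT non-TFR cells, under the limit on every array, and its second probe holds the same 4 values. In TFR cells, the other members higher in KO than in WT by at least 0.5 were Snord118, Snord17, Snord87 and Snora20. Snord118 is the RNA U8, needed to process the RNAs of the large ribosomal subunit, and it has no host gene in the table. It was at 7.89 in KO TFR, 7.27 in WT TFR, 7.37 in KO non-TFR and 7.23 in WT non-TFR cells, so that the KO TFR array stood above the other 3. Snord17 had 9.30 in KO TFR, 8.73 in WT TFR, 9.08 in KO non-TFR and 9.10 in WT non-TFR cells, and here the WT TFR array stood below the other 3.

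Snord87 had 7.28 in KO TFR, 6.53 in WT TFR, 6.33 in KO non-TFR and 6.73 in WT non-TFR cells, with a genotype difference of 0.75 in TFR and -0.40 in non-TFR cells. Snora20, which lies within the chaperonin gene Tcp1, was at 5.18, 4.19, 4.96 and 5.72 in the same order, all under the limit. Its genotype differences were 0.98 in TFR and -0.76 in non-TFR cells, and no fold is given for it.

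The members lower in KO TFR than in WT TFR cells by at least 0.5, beside Scarna17, were Scarna6, Snora7a, Snord15a and Snord35b. Scarna6 was at 6.64 in KO TFR, 7.23 in WT TFR, 7.26 in KO non-TFR and 7.54 in WT non-TFR cells. Snora7a, within the ribosomal protein gene Rpl32, had 7.35 in KO TFR, 7.90 in WT TFR, 7.91 in KO non-TFR and 8.36 in WT non-TFR cells. For both, KO TFR was the lowest array and WT non-TFR the highest. Snord15a, within Rps3, was at 5.84 in KO TFR, 6.49 in WT TFR, 6.21 in KO non-TFR and 6.55 in WT non-TFR cells, lower in KO cells of both populations. Its KO TFR level was under the limit, as were both TFR levels of Snord35b (5.33 in KO and 5.85 in WT cells).

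In non-TFR cells the genotype differences furthest from 0 after Snora20 were those of Snord91a, Snord70, Snord110, Snora19 and Snord73b. Snord70 was higher in KO than in WT non-TFR cells by 0.74 and Snord73b, also within Rps3a1, by 0.67, with 7.34 in KO TFR, 6.93 in WT TFR, 7.60 in KO non-TFR and 6.93 in WT non-TFR cells. Snord91a was at 4.42 in KO TFR, 4.34 in WT TFR, 3.74 in KO non-TFR and 4.48 in WT non-TFR cells, and Snord110, within Nop56, at 6.10, 5.95, 5.40 and 6.10. For both the KO non-TFR array stood below the other 3. Snord91a was under the limit on every array, and Snord110 was under it in KO non-TFR cells.

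Other members were named for a high signal, whatever their differences. Snord13, the RNA U13, which guides acetylation of the RNA of the small ribosomal subunit, was at 10.79 in KO TFR, 10.40 in WT TFR, 10.64 in KO non-TFR and 10.57 in WT non-TFR cells. Scarna2 was between 8.27 and 8.39 on all 4 arrays. Snord89 had 11.35 in KO TFR, 11.38 in WT TFR, 12.20 in KO non-TFR and 11.77 in WT non-TFR cells, below in TFR cells of both genotypes. Snord16a, within Rpl4, had 9.11, 9.30, 9.70 and 10.24 in the same order, and was lower in TFR cells by 0.59 in the KO and 0.94 in the WT pair. Snora23, Snord61 and Snord65 also had lower levels in TFR cells in the KO and in the WT pair, while Snord71 was -0.27 apart in the KO pair and 0.04 in the WT pair. Snora33, within Rps12, was at 12.29 in KO TFR, 12.55 in WT TFR, 12.99 in KO non-TFR and 12.75 in WT non-TFR cells. Its second probe had 9.17, 9.06, 9.10 and 9.34 in that order, with genotype differences of the opposite sign in both populations. Between populations that second probe differed by 0.07 in the KO and -0.28 in the WT pair, against -0.70 and -0.20 for the probe used.

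Since many snoRNAs come out of host introns, members were set beside the gene that contains them in the reference table, which gives positions but was used here without strand. Of the 78, 68 lay in exactly 1 gene, 6 in several and 4 in none. A host measured by its own probe was found for 58 members in 44 hosts. The hosts were lower in TFR cells too, with a median over pairs of -0.18 in the KO and -0.19 in the WT pair, against -0.21 and -0.27 for their snoRNAs. Across the 58 pairs of snoRNA and host, r was 0.22 in the KO and 0.20 in the WT pair, with rho of 0.11 and 0.15. The sign was shared in 39 pairs and opposite in 19 in KO cells, and shared in 34 and opposite in 23 in WT cells. Between genotypes r was 0.30 in TFR and 0.12 in non-TFR cells. As 11 hosts hold 25 of the members, the pairs are not independent.

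**Figure D4:**
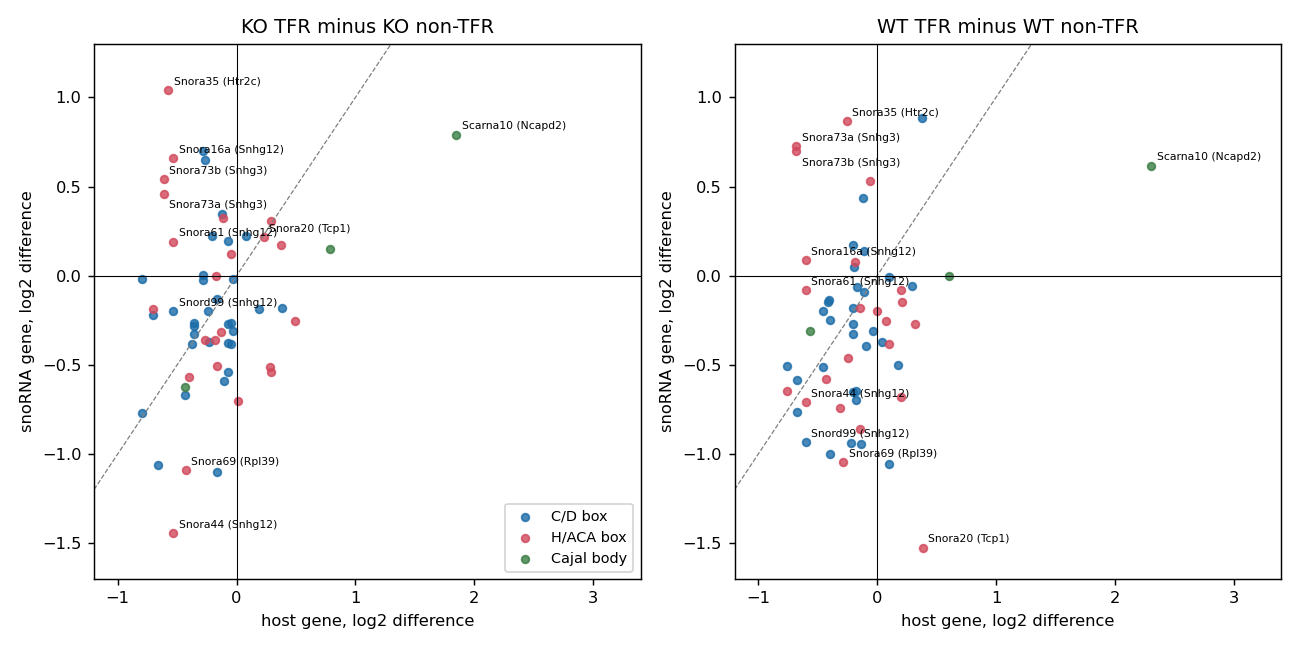
Log2 difference of each host gene (horizontal axis) against that of the snoRNA inside it (vertical axis) for TFR minus non-TFR cells, in KO (left) and WT (right), for 58 pairs in 44 hosts, with a dashed line where both are equal. The snoRNAs of Snhg12 spread along the vertical axis at 1 host value, and those of Snhg3 lie above 0 where the host lies below it.

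Snhg12, a long non-coding RNA whose introns hold 4 members, shows the spread within a host. Snhg12 was at 7.91 in KO TFR, 7.91 in WT TFR, 8.44 in KO non-TFR and 8.51 in WT non-TFR cells, a difference of -0.53 in the KO and -0.60 in the WT pair. Its members differed by -1.44 and -0.71 (Snora44), -0.20 and -0.93 (Snord99), 0.19 and -0.08 (Snora61), and 0.66 and 0.09 (Snora16a). Snhg3, the host of Snora73a and Snora73b, was lower in TFR cells by 0.61 and 0.68 while both of its snoRNAs were higher. Ncl, which encodes nucleolin and holds Snora75 and Snord82, differed by -0.70 and -0.76, and its snoRNAs by -0.19 and -0.65 (Snora75) and -0.22 and -0.51 (Snord82). Scarna10 lies within Ncapd2, a condensin gene of dividing cells, which was higher in TFR cells by 1.85 in the KO and 2.31 in the WT pair.

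The 18 members whose single containing gene encodes a ribosomal protein had medians of -0.38 in the KO and -0.36 in the WT pair of populations. In each pair 16 of 18 (88.9%) were lower, against 50.0% of all genes in the KO and 48.3% in the WT pair. As deposited, 14 of 18 were lower in each pair, against 37.2% and 37.6% of all genes, with medians of -0.26 and -0.26. The 11 ribosomal protein hosts that were measured had medians of -0.26 and -0.18 themselves, with 10 and 9 lower, and of -0.27 and -0.15 as deposited. The 50 members with another single containing gene had medians of -0.16 and -0.26. Between KO and WT cells, members in ribosomal protein genes had medians of -0.16 in TFR and -0.32 in non-TFR cells, and their hosts -0.07 and 0.01.

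Many snoRNA hosts are transcribed from start sites within a run of the bases C and T, a feature of genes of the translation machinery. Of the members at least 2-fold apart in any comparison, 8 have 1 measured host. The windows below, from RefSeq on build GRCm38.p6, are those of 6 of these hosts and leave out Rpl17 and Rpl3. They run from 35 bases before to 25 after the annotated start. Capitals mark the longest run of C and T within 20 bases of the start on either side, every such run where 2 are equally long, and the part within those bases where a run goes on beyond them, as 1 in Rpl39 does. The search did not require a run to cover the start, and of the runs marked only that of Snhg12 covers it. For the hosts of Snora44 and Snora69, the run is 9 bases in Snhg12 (chr4:132308643-132308702, plus strand) and 8, found at 2 places, in Rpl39 (chrX:37085198-37085257, minus strand). For the host of Snora20 it is 6, found at 2 places, in Tcp1 (chr17:12916294-12916353, plus strand). For the hosts of Snora35, Snord73a and Snord70 it is 5 in Htr2c (chrX:146962478-146962537, plus strand), 5 in Rps3a1 (chr3:86142644-86142703, minus strand) and 4 in Nop58 (chr1:59684971-59685030, plus strand).
Snhg12: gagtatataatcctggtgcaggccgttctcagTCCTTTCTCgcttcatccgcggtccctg
Rpl39: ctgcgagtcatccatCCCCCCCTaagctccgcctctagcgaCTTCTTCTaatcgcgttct
Tcp1: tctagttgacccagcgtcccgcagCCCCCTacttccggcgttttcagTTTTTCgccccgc
Htr2c: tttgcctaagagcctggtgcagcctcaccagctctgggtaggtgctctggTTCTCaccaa
Rps3a1: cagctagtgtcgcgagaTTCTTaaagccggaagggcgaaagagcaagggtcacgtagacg
Nop58: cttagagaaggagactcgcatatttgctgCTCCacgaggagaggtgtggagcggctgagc
A run of at least 8 such bases was present in 9 of 37 hosts with a window in the table (24.3%), in 3 of 7 ribosomal protein hosts, and in 15.9% of all 27025 windows. On the other strand it was present in 10.8% of the hosts and 17.3% of all windows. These are descriptions of letters in a window, whether or not a run covers the start, and were set against no expression value.

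For the proteins that work with snoRNAs the medians lay close to those of all genes. Of 23 listed snoRNP proteins and assembly factors, 22 were measured, with medians of 0.00 in the KO and 0.01 in the WT pair of populations and -0.05 in TFR and -0.02 in non-TFR cells between genotypes, and none passed 2-fold in any comparison. As deposited, where the median of all genes was higher too, the population medians were 0.14 and 0.13. The 30 ribosome biogenesis genes had medians of 0.05 in the KO and 0.13 in the WT pair, with 21 of 30 higher in WT TFR cells and none 2-fold apart. Against that direction, Utp14a, a factor of small subunit assembly, was lower in TFR cells by 0.92 and 0.96, beside Ncl. The 15 measured genes of RNA decay and the nuclear exosome had medians of 0.12 and 0.00 between populations. Between genotypes 12 of the 15 were higher in KO TFR than in WT TFR cells, with a median of 0.11, and the median was -0.01 in non-TFR cells.

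The 18 long non-coding snoRNA hosts, listed by name, had 12 members lower in TFR cells in each pair, with medians of -0.13 in the KO and -0.17 in the WT pair, and of 0.02 and -0.08 as deposited. Zfas1, one of them, was at 9.86 in KO TFR, 10.77 in WT TFR, 10.54 in KO non-TFR and 10.90 in WT non-TFR cells, -0.91 apart between KO and WT TFR cells. Rian, host of a snoRNA cluster at an imprinted locus, was higher in TFR cells by 1.12 and 1.04, with 5.30 in KO TFR, 5.05 in WT TFR, 4.18 in KO non-TFR and 4.02 in WT non-TFR cells, all under the limit.

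RNA quality and labelling bear on RNAs this short, and the files hold no RNA integrity value. The labels name an RNeasy plus micro kit and labelling as cRNA from 1 ug of total RNA. Other short RNAs can be set beside the members, though their list was not matched to the members in length. Of 10 other short non-coding RNA genes, 9 were lower in KO TFR than in KO non-TFR cells, with a median of -0.20, and 5 were lower in WT TFR than in WT non-TFR cells, with a median of -0.02. As deposited, 9 and 3 were lower, with medians of -0.12 and 0.09. The RNA subunit of ribonuclease P, Rpph1, was at 12.75 in KO TFR, 12.90 in WT TFR, 12.95 in KO non-TFR and 12.77 in WT non-TFR cells, and Rny3, the Y3 RNA, at 8.17, 8.48, 9.08 and 8.45. The 483 microRNA genes, most of them under the limit on each array, had medians of -0.02 in the KO and -0.06 in the WT pair of populations. Between genotypes their medians were -0.03 in TFR and -0.05 in non-TFR cells. The part of RNA recovery and labelling in the members' differences was not tested.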

How the data were processed

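Per the labels, cRNA made from total RNA of the sorted cells was run on the Mouse Gene 2.0 ST array of Affymetrix. The table deposited by the authors holds 1 log2 value per probe and array, a scale read from the range of its values. The submitters' processing notes name MAS5, with neither version nor role. There are no detection calls, and precision is limited by having 1 array per group.

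All 41345 probes were quantile normalized with limma 3.58.1 in R 4.3.3, which makes the arrays' distributions equal. As deposited, array medians were 5.68 in KO TFR, 5.69 in WT TFR, 5.58 in KO non-TFR and 5.58 in WT non-TFR cells. The platform annotation gave 1 symbol to 23521 probes, several to 1814 and none to 16010. The brightest probe per gene left 22180 genes. A fold is printed only where both levels exceed 5.91, the median of gene means.

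Groups were taken from sample titles. Genes named were the 5 highest and 5 lowest per comparison and for the difference of genotype differences, the 10 with the highest mean, and the highest of each class. Members and lists were chosen with earlier results of these data known. The counting of 2-fold differences was checked on simulated data. Alternatives tried were cyclic loess, no further normalization, centring on the 75th percentile, the mean of all probes and members above the limit only. Near-identical genes can share signal.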

Additional observations from a re-analysis of the deposited data

Results flagged for a closer look

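In Snord87 and Snora20 the KO minus WT difference had opposite signs in the 2 populations and the gap between them passed 1 on the log2 scale. For Snord87 the difference was 0.75 in TFR and -0.40 in non-TFR cells, a gap of 1.15. For Snora20 it was 0.98 in TFR and -0.76 in non-TFR cells, a gap of 1.74, on levels under the limit for an expressed gene on all 4 arrays. With 1 array per group neither gap was tested.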

How the results depend on the processing

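No median over the 78 members and no 2-fold difference of a named gene changed direction under the alternatives of scaling and probe choice, though medians of the smaller classes and lists did as given above. Over members above the limit only, the median of KO TFR minus WT TFR was -0.03, against 0.05 over all 78. As deposited, 2 members were at least 2-fold lower and 2 higher in KO TFR than in KO non-TFR cells, where 0.703% of all genes were lower and 3.09% higher, and 2 were lower in WT TFR than in WT non-TFR cells, against 0.775% of all genes. With centring on the 75th percentile (Snora35 at 0.99 there), and among members above the limit, 0 members were 2-fold higher in KO TFR than in KO non-TFR cells, where 2.02% of all genes were with that centring. With the mean of all probes, 0 members were 2-fold lower in KO TFR than in WT TFR cells. Why these counts moved was not tested. None of the members belongs to the Snord113, Snord114, Snord115 or Snord116 families, so that leaving these out changes nothing. No replicate block could be fitted and no array left out, because each group has 1 array. An additive fit that pairs the populations by genotype, taking their interaction as error, was not run. Levels under the limit bound what can be said of 14 members on all arrays.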

Other observations

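The 46 probes that pair a snoRNA with other symbols were not used for the members. On them, 25 were lower in KO TFR than in KO non-TFR cells (54.3%, near the 50.0% of all genes), with a median of -0.08. In the WT pair 38 were lower in TFR cells (82.6%, against 48.3% of all genes), with a median of -0.12. Between genotypes 20 were lower in KO TFR than in WT TFR cells (43.5%, against 47.6% of all genes), with a median of 0.09. In non-TFR cells 31 were lower in KO cells (67.4%, against 43.8% of all genes), with a median of -0.22. The 8 genes that the reference table types as snoRNA but whose symbols fall outside the rule had medians of 0.06 in both population comparisons. Rnu3a, a copy of the C/D box RNA U3, was at 5.68 in KO TFR, 5.61 in WT TFR, 5.83 in KO non-TFR and 6.13 in WT non-TFR cells.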
